A study of Mus musculus with 40 samples.

Results

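B16F10 tumours from mice given OTX015 were compared with untreated tumours of the same experiment. By their sample titles, 21 of the 40 arrays of the series belong to this comparison, 10 from treated and 11 from control tumours. B16F10 is a mouse melanoma line. Per the labels, its cells had been placed under the skin of C57 black 6J mice 8 weeks old, and the treated mice took OTX015 by mouth. All 21 tumours share that line and that strain, and the labels give no other allele or agent for either group. The dose, the length of treatment, the vehicle and the sex of the animals are not given. The labels name the samples as melanocyte cells of tumours, mention no sorting, and do not say whether each array is a separate animal. The p-values therefore measure the spread between these samples, which may be in part technical. The other 19 arrays come from cultured B16F10 cells without and with OTX015 (4 and 4) and from a second tumour experiment with guadecitabine, an inhibitor of DNA methylation (5 controls and 6 treated).

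OTX015 is an inhibitor of the BET bromodomain proteins, which bind acetylated lysines of histones and recruit the elongation factor P-TEFb to promoters and enhancers. BET inhibitors are known to lower the transcription of genes that depend on such recruitment, among them inflammatory and interferon-induced genes of macrophages and, in many tumour cells, Myc. Tumours grown under the skin also hold host cells such as macrophages and fibroblasts, so RNA of a whole tumour mixes the transcripts of melanoma cells with those of its surroundings.

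RNA was measured on Affymetrix 3′ expression arrays, and all levels below are log2 values after quantile normalization of the 21 arrays. Across probe sets, which are not replicates of each other, pairs of control arrays had a Pearson's r of 0.965 to 0.997 and pairs of treated arrays one of 0.972 to 0.996. The array background was set at 4.51, the 95th percentile of the mean levels of probe sets for olfactory and vomeronasal receptors, which most tissues do not express. As deposited, the mean of every treated array (4.35 to 4.39) lay below that of every control array (4.55 to 4.60). It also lay below that of all 30 other arrays of the series (4.55 to 4.64). Processing of the treated arrays apart from the others and an effect of treatment cannot be told apart, for the overall level or for single genes. The comparisons with guadecitabine and with cultured cells below carry the same limit. Changes are relative to this shift, which was -0.21 at the median of all genes on the deposited values. The melanocyte label matched the data, since Dct, Tyrp1, Pmel and Mlana, genes of pigment synthesis and of the melanosome, had control means of 12.61, 12.29, 12.07 and 11.78. Treated tumours 1 and 4 stood apart from the other treated tumours. Tumour 1 had the lowest levels of leukocyte genes, with a mean over 17 macrophage genes of 4.81. Tumour 4 had the highest mean over 8 monocyte and neutrophil genes, 6.84, and low levels of division genes such as Mki67 (7.29). Counts of called genes without both tumours stand beside the main counts below.

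After quantile normalization, 1482 of 17097 genes were higher (8.67%) and 1281 were lower (7.49%) in treated tumours at a limma adjusted p under 0.05 (Benjamini-Hochberg). Without treated tumours 1 and 4 the counts were 1288 and 1160. On the deposited values, which carry the shift, the split was 215 higher and 9230 lower. Most changes were small: 75 genes rose (0.439%) and 120 fell (0.702%) by at least 1.5-fold, against 71 and 97 without treated tumours 1 and 4. Of 9126 genes above background in at least 1 group, 663 were higher (7.26%) and 534 lower (5.85%), or 580 and 503 without those tumours. Of 8624 above it in both groups 537 were higher (6.23%) and 426 lower (4.94%). Genes below background were called more often than those above it (19.6% against 13.1%), and 11 of the 78 receptor genes were called (14.1%), 1 of them with a change over 1.5-fold. Small changes near background are therefore given little room here.

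**Figure D1:**
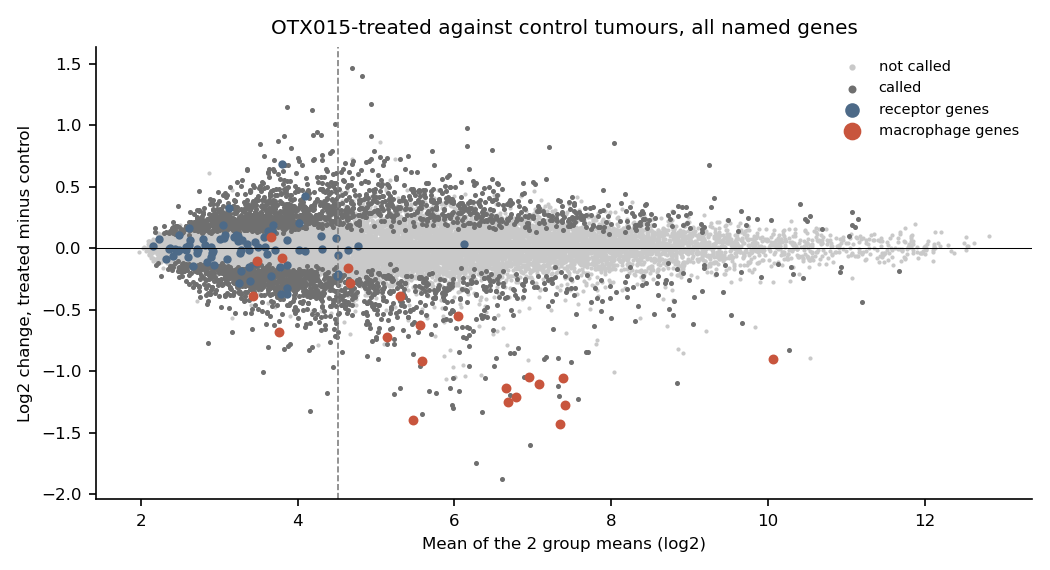
Log2 change in OTX015-treated against control tumours (vertical axis) by the mean of both group means (horizontal axis, log2) for 17097 genes; dark points passed limma at adjusted p under 0.05, blue points are olfactory and vomeronasal receptor genes, red points macrophage genes, and the dashed line is the array background at 4.51. Many of the points lowest on the vertical axis are macrophage genes, 12 of which fell by at least 1.5-fold.

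Of the 35 gene lists, the macrophage list had the lowest median change. Of 22 measured genes of this list, 13 fell (59.1%, against 7.49% of all genes) and 0 rose. The median log2 change over the list was -0.81, against 0.01 over all genes. Of the 13 genes that fell 12 lay above background, and all 17 members above background had a change below 0. For list members, above background means in at least 1 group. A member above it in controls alone can only show a fall, so these signs and the list means are no separate support. Without treated tumours 1 and 4, 11 members fell. The mean of those 17 genes ran from 5.88 over a median of 6.69 to 7.84 in controls, and from 4.81 over 6.10 to 6.43 in treated tumours. The groups overlap on this mean, because control tumours 1, 3 and 5 lay within the range of the treated tumours. In RNA of whole tumours, fewer cells of a type and less RNA per cell cannot be told apart.

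The genes of complement C1q, the recognition molecule of the classical pathway that tissue macrophages make, lie side by side on chromosome 4 in the order C1qb, C1qc and C1qa (chr4:136880126-136898844, GRCm38.p6). C1qb ran from 6.81 over a median of 8.23 to 9.14 in controls and from 3.95 over 7.04 to 7.83 in treated tumours. It fell 2.70-fold, or -1.43 ± 0.39 on the log2 scale (SE of the change, 11 controls and 10 treated, limma adjusted p = 0.0144), with all 10 treated tumours below the control mean and 4 of them below every control. C1qa (-1.27) and C1qc (-1.21) fell by similar amounts.

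The largest and the steadiest falls were not in the same genes. Rgs1 encodes a regulator of G protein signalling that restrains the movement of leukocytes toward chemokines. Its level ran from 5.94 over 7.68 to 8.67 in controls and from 3.93 over 5.69 to 6.85 in treated tumours, a 3.67-fold fall (-1.87 ± 0.36, limma adjusted p = 0.000823) with 7 of 10 treated tumours below every control. Fcrls, an Fc receptor-like gene of macrophages and microglia, ran from 5.62 over 5.92 to 7.10 in controls and from 4.16 over 4.85 to 5.12 in treated tumours. It was the macrophage gene in which the groups did not overlap: all 10 treated tumours lay below every control (-1.40 ± 0.17, limma adjusted p = 8.08e-06), as for 0.55% of all genes. Rnase4, a secreted ribonuclease gene, and Cbr2, a carbonyl reductase gene, fell by 1.30 and 1.28 on the log2 scale, with 7 and 9 treated tumours below every control.

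Surface and lysosomal markers of macrophages fell together. Cd68, a lysosomal glycoprotein, fell by 1.10, Cd14, the co-receptor for lipopolysaccharide, by 1.05, and Adgre1, a long-used surface marker of mouse macrophages, by 0.91. Ms4a7 fell by 1.14 and the lipid-sensing receptor gene Trem2 by 0.72. As means of their probe sets Ms4a7 and Trem2 fell by 0.54 and 0.42. The pore-forming Mpeg1, which macrophages use against engulfed bacteria, ran from 7.14 over 8.19 to 9.40 in controls and from 5.09 over 6.96 to 7.98 in treated tumours (-1.23 ± 0.32, limma adjusted p = 0.0111). Of the 10 treated tumours 6 lay below every control, and all lay below the control mean. Mrc1, the mannose receptor gene, had a change of -1.25 (adjusted p = 0.0317) that did not pass without control tumour 2, 7, 8, 9 or 11 or treated tumour 1, 4 or 10. Without both treated tumours 1 and 4 it was -0.90 (adjusted p = 0.0971). Csf1r, the receptor for the growth factor of macrophages, was not called (-0.39 ± 0.18, adjusted p = 0.147).

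**Figure D2:**
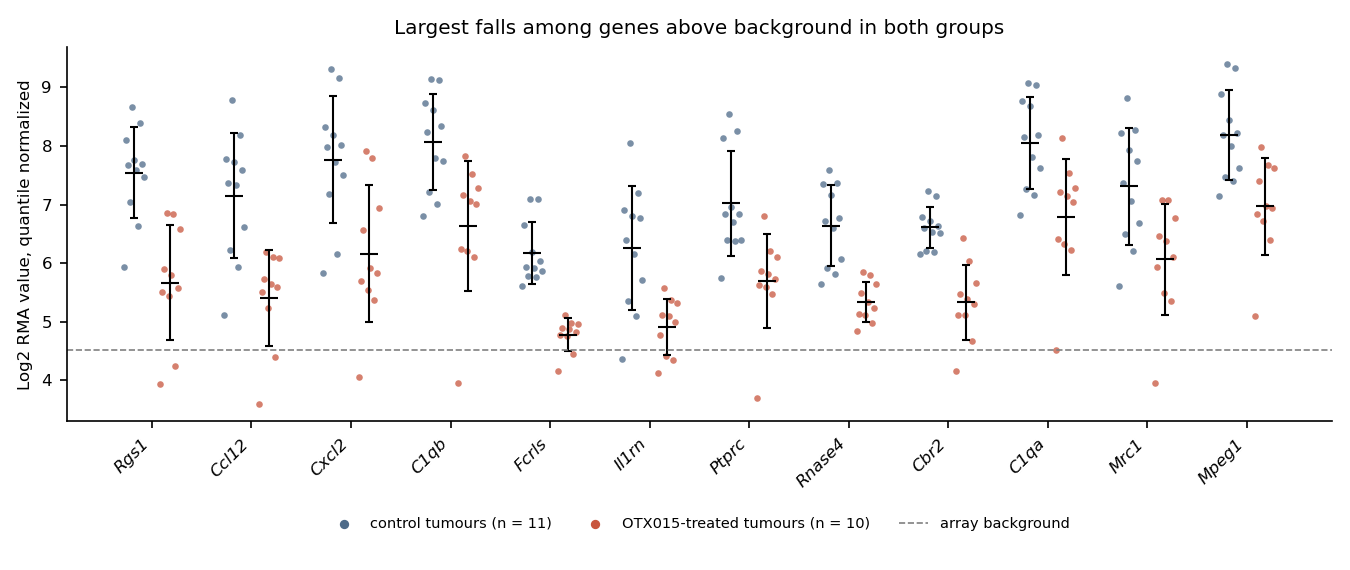
Levels (log2, quantile normalized) of the 12 genes that fell most, among those called and above background in both groups; each point is a tumour (11 controls, 10 OTX015-treated), black marks give mean and SD, and the dashed line is the array background at 4.51. All 10 treated tumours lie below every control for Fcrls, while most other genes overlap. Among treated tumours, tumour 1 is lowest for 8 of the 12 genes, as for Ptprc (3.69), tumour 4 for Ccl12 (3.58), Fcrls and Cbr2, and tumour 5 for Rnase4.

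Genes shared by most leukocytes followed. Of 16 measured pan-leukocyte genes 12 fell (75%, against 7.49% of all genes) and 0 rose (median -0.65). Of these 12 genes 11 lay above background in at least 1 group. Without treated tumours 1 and 4, 7 fell. Ptprc, which encodes CD45, the phosphatase on all nucleated blood cells, ran from 5.75 over 6.84 to 8.55 in controls and from 3.69 over 5.77 to 6.81 in treated tumours (2.52-fold lower, -1.33 ± 0.34, limma adjusted p = 0.0102). All treated tumours lay below the control mean. The actin regulator Coro1a (-1.16), the surface glycoprotein gene Cd52 (-1.05) and Fcer1g, the signalling chain of several Fc receptors (-1.12), also fell, Coro1a by 0.66 when its probe sets were averaged. Of 17 complement genes 7 fell (41.2%, against 7.49% of all genes) and 0 rose (median -0.12), or 6 fell without treated tumours 1 and 4. The falls included the C1q genes and Cfp, which encodes properdin, the stabilizer of the alternative pathway (-0.90).

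Chemokine ligands moved in both directions. Of 33 measured ligands 8 fell (24.2%, against 7.49% of all genes) and 3 rose (9.09%, against 8.67%), with a median of -0.12. Without treated tumours 1 and 4 the falls numbered 4, and 4 or 5 ligands fell without control tumour 8, 9 or 10 or treated tumour 1, 2, 5, 7, 9 or 10. Ccl12, a ligand that draws monocytes, ran from 5.12 over 7.38 to 8.79 in controls and from 3.58 over 5.61 to 6.18 in treated tumours, a 3.36-fold fall (-1.75 ± 0.39, limma adjusted p = 0.00337). Of the 11 controls 9 lay above every treated tumour. Cxcl2, which attracts neutrophils, fell by 1.60 (adjusted p = 0.0178) and did not pass without treated tumours 1 and 4 (-1.28, adjusted p = 0.0565). Il1rn, the natural antagonist of the interleukin 1 receptor and itself induced in activated macrophages, fell by 1.35, and by 0.76 when its probe sets were averaged. Cxcl10 was not called (-0.34, adjusted p = 0.470), although its level in treated tumour 4 (5.07) was far below the others. Ccl28, a chemokine of epithelial surfaces, was higher by 0.94, from a control mean of 3.78 below background to 4.72. The mean of its 3 probe sets changed by 0.29.

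Genes of MHC class II, by which macrophages, dendritic cells and B cells present peptides to helper T cells, fell in 8 of 15 (0 rose, median -0.51). In fits without treated tumours 1 and 4, 5 fell. The 8 are 53.3%, against 7.49% of all genes, and 7 of them lay above background in at least 1 group. H2-Aa, an alpha chain, ran from 6.90 over 7.89 to 9.50 in controls and from 6.15 over 6.61 to 7.76 in treated tumours (-1.20 ± 0.32, limma adjusted p = 0.0114). In 7 of 10 treated tumours the level was below that of every control. The beta chain H2-Eb1 fell by 0.96 (adjusted p = 0.0193) but did not pass without treated tumours 1 and 4 (-0.83, adjusted p = 0.0618), nor without the 3 arrays of lowest spread (-0.61, adjusted p = 0.0621). Lgmn, a lysosomal protease that trims antigens, fell by 0.51.

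Markers of other cell types did not fall as the macrophage list did. Of 14 monocyte and neutrophil genes 0 fell and 1 rose (median 0.11), and of 9 dendritic genes 0 fell and 1 rose. S100a8, an abundant neutrophil gene, spread from 3.96 to 7.59 in controls and from 4.00 to 9.98 in treated tumours (0.27, adjusted p = 0.827), and without tumour 4 the difference was -0.20. Of 24 T and NK cell genes 3 lay above background and 0 of those were called. Below background, 6 of the 24 were called lower (25%, against 7.49% of all genes) and 1 higher. Over the 24 genes 19 changes were below 0, with a median of -0.10. Lower T and NK cell transcripts are thus not excluded, though all these calls lay below background. Cd3e had means of 6.49 and 6.32 (adjusted p = 0.583), while Cd4 and Cd8a lay below background in both groups. No B cell gene lay above background, and 1 of 8 was called lower (12.5%). Of 19 endothelial and pericyte genes 0 fell and 1 rose, and Kdr, the main VEGF receptor of vessels, had means of 5.21 and 5.25. Of 13 keratinocyte genes 1 rose, of 13 muscle genes 3 rose, of 7 fat cell genes 0 changed, and of 6 red cell genes 1 rose. Over all genes 8.67% rose and 7.49% fell, so counts in lists this small say little. The part of host cell numbers in the macrophage result was not tested.

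**Figure D3:**
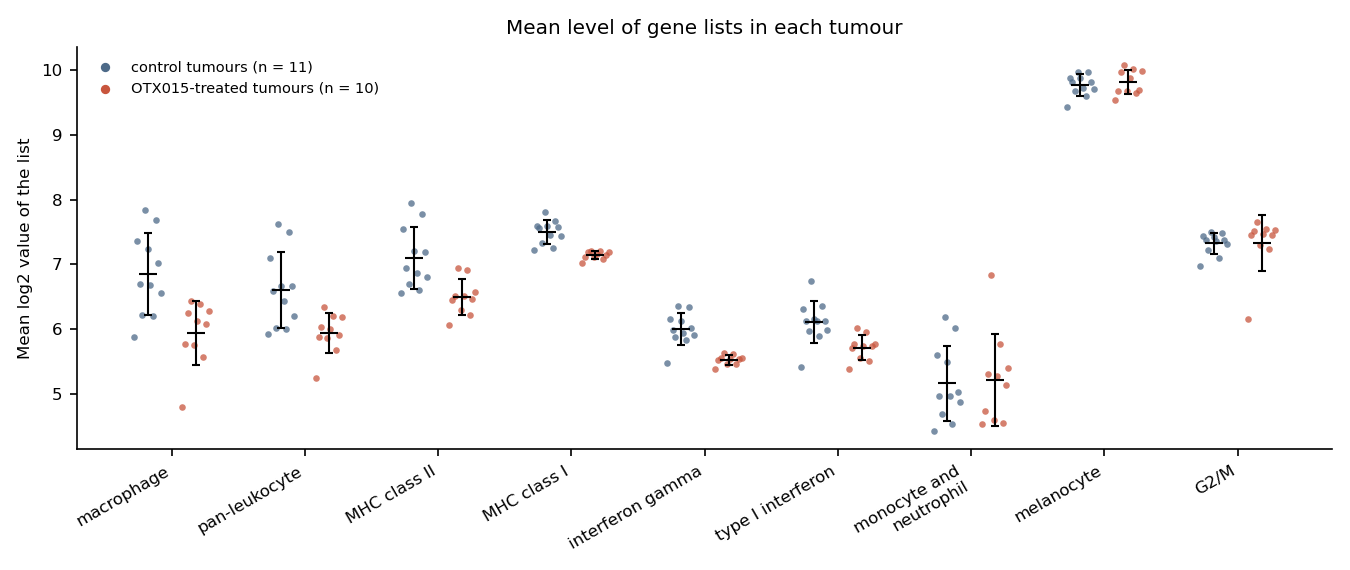
Mean level (log2) over the members of 9 gene lists that lie above background in at least 1 group, by tumour. Points are tumours (11 controls, 10 OTX015-treated) and black marks give mean and SD of a group. Treated tumours lie lower on average for the macrophage, pan-leukocyte, MHC and interferon lists, with the spread of treated tumours narrow for MHC class I (7.03 to 7.21) and interferon gamma (5.39 to 5.64), while the melanocyte and G2/M means overlap throughout.

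MHC class I and interferon-induced genes fell with less spread between treated tumours. MHC class I molecules are carried by nearly all cells, melanoma cells included, and show peptides cut by the proteasome to cytotoxic T cells. Of 19 measured class I genes 10 fell (52.6%, against 7.49% of all genes) and 0 rose (median -0.28). Of these 10 genes 9 lay above background in at least 1 group. The count of falls was also 10 without treated tumours 1 and 4. The mean over 16 members above background ran from 7.23 over 7.57 to 7.81 in controls and from 7.03 over 7.16 to 7.21 in treated tumours.

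Psmb8 and Psmb9, which lie close together on chromosome 17, encode catalytic subunits that interferon gamma puts into the immunoproteasome. Psmb8 ran from 5.42 over 6.45 to 7.50 in controls and from 4.76 over 5.42 to 5.73 in treated tumours, and 10 of 11 controls lay above every treated tumour. It fell 2.20-fold (-1.14 ± 0.19, limma adjusted p = 0.000213), and averaging its probe sets gave a fall of 0.59. Psmb9 ran from 5.26 over 5.66 to 6.13 in controls and from 4.67 over 5.11 to 5.63 in treated tumours (-0.56 ± 0.10, limma adjusted p = 0.000522). The heavy chain gene H2-K1 was among the brightest of the list, at 9.26 over 9.89 to 10.35 in controls and 8.98 over 9.32 to 9.47 in treated tumours (-0.54 ± 0.11, limma adjusted p = 0.00143). H2-D1 changed by -0.53, and by -0.15 as the mean of its 5 probe sets. H2-M3, which presents formylated peptides, fell by 0.58 and the peptide editor Tapbp by 0.43. Heavy chain genes of this family share sequence, so their probe sets may measure each other in part.

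Genes induced by interferon gamma, the main activating cytokine of T and NK cells, fell in 11 of 28 and rose in 1 (median -0.31). Those of the type I interferon response, which follows sensing of nucleic acids, fell in 11 of 31 and rose in 0 (median -0.28). These falls are 39.3% and 35.5% of the lists, against 7.49% of all genes. Above background in at least 1 group lay 9 of the interferon gamma and 6 of the type I genes that fell. The others lay below it, where genes were called more often (19.6% against 13.1%). Without treated tumours 1 and 4 the counts of falls were 11 and 10. Both lists share members with the class I list, among them Psmb8 and Psmb9 in the first. The upstream sequences of 4 of the genes that fell are shown because they carry matches to the letters that interferon-activated factors are known to bind. Capitals mark GAAA, any 2 bases and GAAA, the core of the interferon-stimulated response element (ISRE), or TTCNNNGAA, the gamma-activated site (GAS), each searched on both strands. The sequences are the 250 bases before each RefSeq gene start in GRCm38.p6, written 5′ to 3′ on the strand of the gene.
Igtp, chr11:58199306-58199555, plus strand: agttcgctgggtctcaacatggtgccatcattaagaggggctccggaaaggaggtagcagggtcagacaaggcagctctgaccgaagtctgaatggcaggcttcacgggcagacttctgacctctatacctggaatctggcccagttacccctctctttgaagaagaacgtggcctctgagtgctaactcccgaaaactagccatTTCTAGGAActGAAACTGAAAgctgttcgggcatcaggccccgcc
Tgtp1, chr11:48992247-48992496, minus strand: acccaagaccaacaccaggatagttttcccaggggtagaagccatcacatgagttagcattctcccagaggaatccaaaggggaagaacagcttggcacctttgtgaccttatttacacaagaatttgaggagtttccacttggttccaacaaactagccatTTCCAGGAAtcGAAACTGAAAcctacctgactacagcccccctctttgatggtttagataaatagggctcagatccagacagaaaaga
Gbp2, chr3:142620413-142620662, plus strand: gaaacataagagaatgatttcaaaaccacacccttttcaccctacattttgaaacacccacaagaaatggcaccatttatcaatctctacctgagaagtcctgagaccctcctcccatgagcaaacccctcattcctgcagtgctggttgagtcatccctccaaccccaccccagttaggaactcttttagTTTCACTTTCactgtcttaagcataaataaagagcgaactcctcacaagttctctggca
Psmb8, chr17:34197945-34198194, plus strand: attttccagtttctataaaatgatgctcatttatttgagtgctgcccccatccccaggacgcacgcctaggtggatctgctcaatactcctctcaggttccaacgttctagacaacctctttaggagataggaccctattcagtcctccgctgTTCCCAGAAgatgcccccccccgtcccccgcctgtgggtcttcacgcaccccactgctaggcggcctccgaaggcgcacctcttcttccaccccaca
In Igtp and Tgtp1 a GAS match stands directly before an ISRE match, at 45 and 34 bases before the gene start in Igtp and at 88 and 77 in Tgtp1. Gbp2 has an ISRE match on the opposite strand at 59 bases and Psmb8 a GAS match at 97. Of 13605 measured genes with a RefSeq promoter, 2.58% hold the ISRE letters and 6.43% the GAS letters in this window. Among the 9 interferon gamma genes that fell and have a promoter in the table, 4 hold the ISRE letters and 4 the GAS letters (44.4% each). The whole interferon gamma list has them about as often, each in 9 of 21 promoters (42.9%), so the letters do not set apart the members that fell. Of 7 promoters of type I interferon genes that fell 3 hold the ISRE letters and 0 the GAS letters, and of 8 of class I genes that fell 0 hold the ISRE letters and 2 the GAS letters. Over the genes above background, the ISRE letters occur in 2.37% of all 7479 promoters, in 4.07% of 418 that fell and in 0.906% of 552 that rose. A match is a description of the letters and not of a bound site.

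Igtp and Tgtp1 encode GTPases that attack the vacuoles of parasites inside cells. Igtp ran from 5.13 over 5.45 to 6.21 in controls and from 4.43 over 4.82 to 5.26 in treated tumours (-0.66 ± 0.12, limma adjusted p = 0.000596). In 10 of 11 controls the level was above that of every treated tumour. Tgtp1 ran from 5.05 over 6.47 to 7.49 and from 4.98 over 5.51 to 5.89 (-1.06 ± 0.22, limma adjusted p = 0.00178), with the reserve that a near-identical copy, Tgtp2, may share its probe set. A single control overlapped the treated tumours. The GTPase Ifi47 fell by 0.78 and the guanylate-binding protein gene Gbp2 by 0.84, the latter from 4.99 to a treated mean below background.

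Among type I response genes, Cmpk2, a mitochondrial nucleotide kinase gene, ran from 6.21 over 6.77 to 7.32 in controls and from 5.83 over 6.15 to 6.45 in treated tumours (-0.67 ± 0.11, limma adjusted p = 0.000249), and averaging its probe sets gave a fall of 0.41. Usp18, a protease that removes the ubiquitin-like protein ISG15, fell by 0.97 to a treated mean below background. Ifit3 and Ifit1, whose proteins bind viral RNA, fell by 0.70 and 0.65. Ly6e, a surface protein gene, was lower by 1.32 with a treated mean of 3.49 below background. Xaf1 fell by 0.57, but the mean of its 2 probe sets did not pass (-0.18, adjusted p = 0.0722). The checkpoint ligand gene Cd274, which encodes PD-L1, fell by 0.47 (5.59 to 5.12, limma adjusted p = 0.0109). Of 26 checkpoint genes 6 fell (23.1%, against 7.49% of all genes) and 0 rose. Of those that fell 3 lay above background in at least 1 group. Irf1, a transcription factor that interferon gamma induces, was not called (-0.08, adjusted p = 0.592).

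The falls of antigen presentation and interferon genes were set against the guadecitabine experiment, which has controls of its own. The difference of both drug effects was tested for every gene in 1 limma fit of the 32 tumour arrays, in which 606 genes differed (3.54%), 368 of them with the lower value under OTX015 (2.15%). Of 19 class I genes 6 differed, of 28 interferon gamma genes 6, and of 31 type I interferon genes 9, all with the lower value under OTX015. These lists were taken up for their falls with OTX015, an effect that the difference contains. Psmb8 changed by -1.13 with OTX015 and by 0.59 with guadecitabine in this fit, a difference of -1.73 ± 0.32 (adjusted p = 0.00128). For Tgtp1 the values were -1.05 and 0.92, and for Usp18 -0.99 and 0.71. H2-K1 differed by -0.96 (adjusted p = 0.0437), while H2-D1 did not pass (-0.99, adjusted p = 0.0599).

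Of 22 macrophage genes 1 differed between the drugs, against 3.54% of all genes. Fcrls was that gene, with changes of -1.40 and -0.30 and an adjusted p of 0.0398 for the difference. C1qb had values of -1.42 and -0.69 (difference -0.73 ± 0.66, adjusted p = 0.607), Mrc1 -1.24 and -0.98 (adjusted p = 0.878) and H2-Eb1 -0.95 and -0.94 (adjusted p = 0.996). These differences have wide errors, and not passing does not show that both drugs acted alike.

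**Figure D4:**
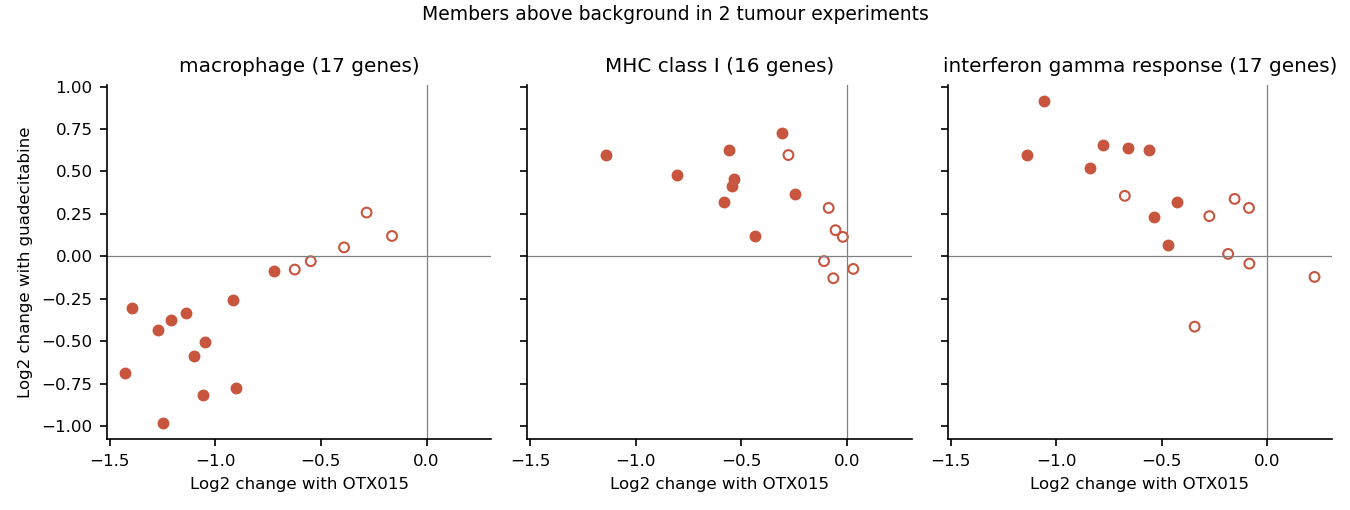
Log2 change with OTX015 (horizontal axis) against the log2 change with guadecitabine (vertical axis) for members of 3 gene lists above background in at least 1 group. Filled points passed limma for OTX015 in tumours at adjusted p under 0.05. Macrophage genes that fell with OTX015 have guadecitabine values below 0, while the class I and interferon gamma genes that fell with OTX015 have guadecitabine values above 0. These signs are not calls. With guadecitabine 0 of 22 macrophage genes passed limma as lower, against 34 of all 17097 genes.

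Targets of p53, the transcription factor that answers DNA damage and other stress, fell in 9 of 23 and rose in 1 (median -0.16). Those falls are 39.1% of the list, against 7.49% of all genes. All 9 that fell lay above background in at least 1 group, and the count was also 9 without treated tumours 1 and 4. It was 5 with arrays centred on their median. Trp53inp1, which promotes cell death and autophagy, ran from 6.31 to 7.51 in controls (mean 6.97) and from 5.14 to 6.72 in treated tumours (mean 6.08, 1.86-fold lower, -0.89 ± 0.17, limma adjusted p = 0.000898). In 8 of 10 treated tumours it was below every control, and the mean of its probe sets fell by 0.55. The cyclin gene Ccng1 fell by 0.50 and Phlda3, an inhibitor of AKT, by 0.44. Mdm2, the ubiquitin ligase that p53 induces to limit itself, fell by 0.38, but the mean of its probe sets did not pass (-0.21, adjusted p = 0.285). Of the 23 targets 4 differed from guadecitabine, all lower under OTX015, as did 2.15% of all genes in this direction. Among the 4 were Trp53inp1 (-0.88 and 0.55) and Ccng1 (-0.49 and 0.59). This list too was taken up for its falls with OTX015, which the difference contains, so the count is no separate support.

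Edem1, which directs misfolded proteins out of the endoplasmic reticulum for degradation, parted the groups completely, as did 0.55% of all genes in this direction. It ran from 7.81 over 8.17 to 8.27 in controls and from 7.20 over 7.49 to 7.70 in treated tumours (-0.63 ± 0.07, limma adjusted p = 5.97e-07). Averaged over its probe sets it fell by 0.39. Of 25 genes of the unfolded protein response 2 fell (8%, against 7.49% of all genes) and 0 rose. Those that fell were Edem1 and Atf3, a transcription factor of the stress response. Atf3 had means of 7.61 and 6.73 (-0.88 ± 0.30, limma adjusted p = 0.0458), with 5 treated tumours below every control. Its call was lost in 23 of 34 alternatives, among them the fits without any one of control tumours 4 to 11 or treated tumours 1, 2, 4 to 7 and 10, and without both treated tumours 1 and 4 it was -0.77 (adjusted p = 0.103).

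Fewer genes rose than fell by at least 1.5-fold. Above background in both groups, Cited1, a transcriptional co-regulator expressed in melanocytes, ran from 6.54 over 7.69 to 8.28 in controls and from 7.75 over 8.44 to 8.99 in treated tumours (1.80-fold higher, 0.85 ± 0.18, limma adjusted p = 0.00261). In 9 of 10 treated tumours the level was above every control. Nrp2, a co-receptor for semaphorins and VEGF-C, ran from 5.99 over 6.87 to 7.16 and from 7.23 over 7.52 to 8.04 (0.82 ± 0.13, limma adjusted p = 0.000105). Cers6, a ceramide synthase gene, ran from 5.70 over 6.18 to 6.40 and from 6.46 over 6.74 to 7.62 (0.80 ± 0.13, adjusted p = 0.000223). Neither gene overlapped between the groups, as for 0.825% of all genes with every treated tumour above every control. Rc3h1, which encodes roquin 1, a protein that destabilizes mRNAs of immune genes, rose by 0.83 (5.75 ± 0.23 SD to 6.58 ± 0.23 SD), again with no overlap.

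Other rises had control means close to the background of 4.51. Chrnb4, a nicotinic receptor subunit gene, ran from 4.54 to 4.93 in controls and from 5.29 to 5.63 in treated tumours, and rose by 0.74 (0.37 as the mean of its 2 probe sets). Nat8 (0.73), Nat8f2 (0.79), Slc13a2 (0.75), Mettl22 (0.73) and Elavl2 (0.73) had control means between 4.58 and 5.03. As means of their probe sets Nat8f2, Mettl22 and Elavl2 rose by 0.26, 0.26 and 0.13. Cox7a1, the muscle and heart form of a cytochrome oxidase subunit, had the largest rise of all named genes (1.47 ± 0.20), from a control mean of 3.96 to 5.43. The potassium channel gene Kcnj13 rose from 4.12 to 5.52, with its highest value of 8.75 in tumour 4 and a change of 1.10 without tumours 1 and 4. The part of separate array processing in these low-level rises, as in all other changes, was not tested.

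**Figure D5:**
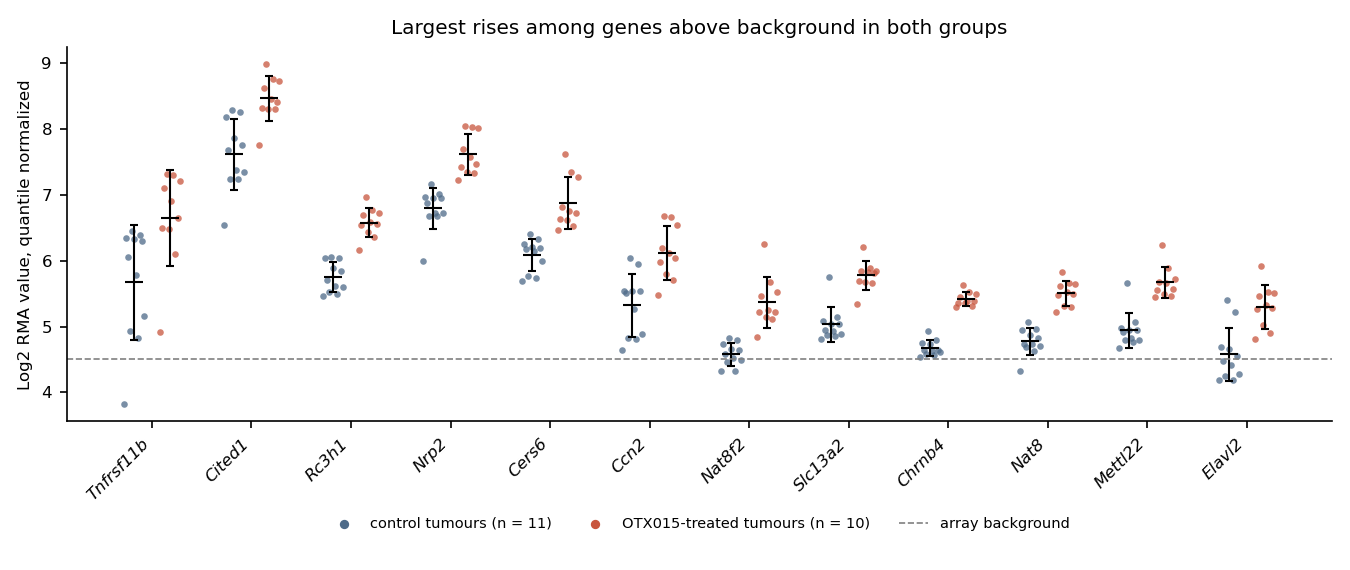
Levels (log2, quantile normalized) of the 12 genes that rose most, among those called and above background in both groups; each point is a tumour (11 controls, 10 OTX015-treated), black marks give mean and SD, and the dashed line is the array background at 4.51. Treated tumours lie above every control for Rc3h1, Nrp2, Cers6, Nat8f2, Chrnb4 and Nat8, as for 0.825% of all genes, while Tnfrsf11b and Ccn2 overlap.

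Genes of secreted signals and of the matrix were among the rises. Tnfrsf11b, which encodes osteoprotegerin, a decoy receptor for RANKL, ran from 3.82 over 6.05 to 6.45 in controls and from 4.92 over 6.78 to 7.32 in treated tumours (0.98 ± 0.32, limma adjusted p = 0.0424). Its call was lost in 20 of 34 alternatives, the deposited values and median centring among them, and without any one of control tumours 2, 4, 9, 10 and 11 or treated tumours 2, 3 and 5 to 10. Ccn2, the connective tissue growth factor gene, rose by 0.79. Of 25 fibroblast and matrix genes 4 rose (16%, against 8.67% of all genes) and 1 fell. With a median of -0.07, the list did not move as a whole. Lum and Fmod encode small proteoglycans that order collagen fibrils, and Col15a1 a basement membrane collagen. Lum ran from 3.73 over 4.35 to 4.84 in controls and from 4.56 over 5.38 to 6.43 in treated tumours (1.17 ± 0.20, limma adjusted p = 0.000232). Fmod rose by 0.68 and Col15a1 by 1.01, the latter from 3.97 below background to 4.98, both without overlap between the groups. Of all genes 0.825% had every treated tumour above every control. Under guadecitabine Lum changed by -0.32, a difference of 1.5 ± 0.31 (adjusted p = 0.00403). Pdgfra and Pdgfrb, receptors that mark fibroblasts and pericytes, lay below background in both groups.

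A list of genes known to respond to BET inhibitors in many cell types, which holds no interferon-induced or inflammatory genes, had no called member. Of these 9 BET response genes 0 passed limma, and 0 had an unadjusted p under 0.05, against 4930 of all 17097 genes. Of 12 genes of BET proteins and P-TEFb partners 1 rose and 3 had such a p, the called gene being Brdt, which lay below background in both groups. Of 11 histone genes, some of which the first list also holds, 0 passed and 1 had such a p, while 16.2% of all genes were called in either direction. Hexim1, an inhibitor of P-TEFb and a common marker of BET inhibition, ran from 6.75 over 6.95 to 7.30 in controls and from 6.81 over 7.01 to 7.71 in treated tumours (0.12 ± 0.09, limma adjusted p = 0.378). Its highest value was that of tumour 4. Myc ran from 6.84 over 8.02 to 8.23 and from 6.51 over 7.79 to 8.62, with no call (-0.14, adjusted p = 0.670). Of 34 MYC targets and ribosome biogenesis genes 3 rose (8.82%, against 8.67% of all genes) and 0 fell (against 7.49%).

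Genes of DNA replication and division changed little. Of 26 G1/S genes 3 rose (11.5%, against 8.67% of all genes) and 0 fell. Of 28 G2/M genes 0 passed limma, against 16.2% of all genes. At an unadjusted p under 0.05 the count was also 0, against 4930 of all 17097 genes. Orc1, which marks replication origins, ran from 4.34 over 4.70 to 5.20 in controls and from 5.10 over 5.26 to 5.71 in treated tumours (0.56 ± 0.09, limma adjusted p = 0.000255). Gins2, a part of the replicative helicase, rose by 0.47 but did not pass on the deposited values (0.24, adjusted p = 0.153). Mki67, a marker of cycling cells, had means of 8.49 and 8.41 (adjusted p = 0.790). Among 22 melanocyte genes 1 rose (4.55%, against 8.67% of all genes) and 0 fell (median 0.04). That gene was Tyr, the rate-limiting enzyme of melanin synthesis (0.36, adjusted p = 0.0222), which did not pass on the deposited values or when its probe sets were averaged. Pmel and Mlana were not called (0.13 and 0.11), but both passed as higher with arrays centred on their median (0.33 and 0.27, adjusted p = 0.00283 and 0.00619) and after cyclic loess (adjusted p = 0.0240 and 0.0345).

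For 11 of these genes the effect in tumours was tested against the effect of OTX015 on cultured B16F10 cells, in a limma fit of 29 arrays in which 32.7% of all genes differed. Of the 11 genes 10 differed. The 11 genes were picked with earlier results known, so this share does not compare with 32.7%. Hexim1 rose by 2.43 in cells and had 0.12 in tumours, and Myc changed by -1.26 in cells and -0.14 in tumours. Edem1 went opposite ways, 1.20 in cells and -0.61 in tumours (difference -1.82, adjusted p = 1.83e-12). Trp53inp1 (1.66 and -0.90), Ccng1 (1.01 and -0.48), Phlda3 (0.34 and -0.42), H2-K1 (0.56 and -0.53) and H2-D1 (0.66 and -0.52) also had opposite signs. Nrp2 (1.40 and 0.81) and Cers6 (1.84 and 0.80) rose in both, by more in cells. Cited1 was the exception, with 1.27 in cells and 0.83 in tumours. The tumours hold host cells and took the drug through the mouse, and the doses and exposure times of both experiments are not given, so their parts cannot be told apart.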

How the data were processed

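Per the labels' protocols, 500 ng of total RNA of each sample was put on an Affymetrix 3′ expression array. The authors deposited log2 values of 45141 probe sets, computed by RMA in the Transcriptome Analysis Console according to the submitters' processing notes. The sources used here do not say which arrays went through RMA as 1 set. Arrays give no read depth, so their number limits the precision. Probe sets that name 1 gene (28898) gave 17097 genes, each taken from its brightest probe set over all 40 arrays, and names came from GEO's annotation and RefSeq GRCm38.p6. The 21 arrays were quantile normalized and fitted with limma 3.58.1 in R 4.3.3 (lmFit, eBayes, two-sided), with Benjamini-Hochberg adjustment over all genes. Differences of effects were contrasts of group means on 32 or 29 arrays normalized together. The fit was tested on simulated data.

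Genes were named by rule: the 12 largest called rises and falls above background in both groups, the 4 largest that cross background by 1 log2 unit, up to 6 called members of each of 35 gene lists, and a short set open to naming whether called or not. The members, lists and rule were chosen with earlier results of these data known. The same replicate numbers occur in both groups, but deviations of same-numbered arrays correlated between -0.54 and 0.43. Of 10 controls 1 matched its own number best. The numbers thus gave no sign of a pairing, and the main fit used none, but these values cannot exclude one. Alternatives were other normalizations, filters, probe set rules, variance models, thresholds, a replicate block and fits that lacked 1 array at a time.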

Additional observations from a re-analysis of the deposited data

Results flagged for a closer look

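In 14 of 79 genes looked at, 1 of the 10 treated tumours lay far from the others on the log2 scale, where chance gives about 1 in 20 such groups. All 14 came from treated tumours 1 and 4, so they are not independent of each other. Tumour 1 was lowest for C1qa (4.51), C1qb (3.95), Cd68 (4.76), Fcer1g (5.10), Ptprc (3.69) and Myc (6.51). Tumour 4 was lowest for Cxcl10 (5.07), Gins2 (5.13), Mki67 (7.29) and Tnfrsf11b (4.92) and highest for Hexim1 (7.71), Kcnj13 (8.75), S100a8 (9.98) and Tapbp (8.23).

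For 27 of the 79 genes the log2 effect of OTX015 differed from that of guadecitabine in tumours (limma, adjusted p under 0.05), with 3.54% of all genes differing. Most of the 79 genes were named because they were called for OTX015, and the difference contains that same effect. The choice of genes alone would thus raise their share, and it does not compare with 3.54%. The difference, OTX015 minus guadecitabine, was -1.97 for Tgtp1, -1.73 for Psmb8, -1.71 for Usp18, -1.43 for Ifi47, -1.38 for Gbp2, -1.30 for Igtp, -1.29 for Ifit3, -1.19 for Ifit1, -0.99 for Xaf1 and -0.82 for Cmpk2. Class I genes differed by -1.18 (Psmb9), -0.96 (H2-K1) and -0.90 (H2-M3). The p53 targets Trp53inp1, Ccng1 and Phlda3 differed by -1.43, -1.08 and -0.95, and Fcrls by -1.09. OTX015 gave the higher effect for Lum (1.5), Ccl28 (1.07), Rc3h1 (0.99), Orc1 (0.86), Col15a1 (0.81), Nat8 (0.76), Slc13a2 (0.72), Mettl22 (0.63), Fmod (0.60) and Chrnb4 (0.59).

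For 10 of 11 genes the effect in tumours differed from that in cultured cells, where 32.7% of all genes differed. The 11 genes were picked with earlier results known, so their share does not compare with 32.7%. The differences were -2.55 for Trp53inp1, -2.31 for Hexim1, -1.82 for Edem1, -1.50 for Ccng1, -1.18 for H2-D1, -1.09 for H2-K1, -1.03 for Cers6, -0.77 for Phlda3, -0.60 for Nrp2 and 1.12 for Myc.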

How the results depend on the processing

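The deposited values called 215 genes higher and 9230 lower (114 and 3946 above background, 16 and 509 by at least 1.5-fold), and members lower in the macrophage (21), complement (13), chemokine ligand (22), MHC class II (14), MHC class I (17), interferon gamma (24), type I interferon (26) and p53 (19) lists, since they carry the overall shift. Median centring left 5 p53 targets lower. Testing genes above background alone gave 530 higher and 437 lower, against 663 and 534 of the same genes in the main fit, and 6 type I interferon genes. Genes below background, which were called more often (19.6% against 13.1%), were not in that adjustment. The mean of probe sets left 44 rises of at least 1.5-fold. A threshold of 0.01 gave 761 higher and 568 lower (302 and 240 above background, 69 falls of at least 1.5-fold), with 5 macrophage, 0 pan-leukocyte, 2 complement, 1 chemokine ligand, 3 class II, 7 interferon gamma, 7 type I interferon and 4 p53 genes lower. Without the 3 arrays of lowest spread (control tumours 9 and 11 and treated tumour 4), and likewise without treated tumours 1 and 4, both chosen after seeing the data, 7 pan-leukocyte, 4 chemokine ligand and 5 class II genes were lower. The planned limit of 3 scaled median absolute deviations on spread left out no array and was not run. With the replicate number as a block, which needs a partner for every tumour, 1319 genes were higher and 1037 lower, and 5 p53 targets were lower. The same 10 pairs without the block gave 1523 and 1248. With each tumour left out in turn, counts ran from 1299 to 1525 higher and 1080 to 1350 lower, from 10 to 16 for macrophage genes, 8 to 12 for pan-leukocyte genes, 4 to 10 for chemokine ligands, 6 to 8 for class II, 11 to 13 for interferon gamma and 10 to 12 for type I interferon genes. Class I stayed at 10 and p53 targets at 9. Of 79 genes followed through 34 alternatives, 43 kept their direction and their side of the threshold in all. Uncalled log2 changes turned sign for Hexim1 (-0.11 as deposited), Mki67 (0.062 without the 3 arrays of lowest spread, and -0.139 to 0.051 with each tumour left out, above 0 without treated tumour 4), S100a8 (-0.078 without treated tumours 1 and 4, and -0.20 to 0.488 with each tumour left out, below 0 without treated tumour 4) and Myc (0.033 without both). Beyond what the settings themselves explain, the cause was not tested.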

Other observations

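Tumours of 1 group differed in their macrophage level, and class II genes followed it from tumour to tumour. Over the 11 controls the mean of 17 macrophage genes and that of 11 class II genes correlated with Pearson's r = 0.97 and Spearman's rho = 0.99 (permutation p = 1e-05 for each, the smallest that 100000 resamples can give; 6e-05 adjusted over 6 relations). Without control tumours 9 and 11, the farthest from the median, r was 0.96. Over the 10 treated tumours r was 0.79 and rho 0.76 (permutation p = 0.00369 and 0.0148, adjusted 0.00738 and 0.0296), and r was 0.60 without treated tumours 1 and 2.

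Type I interferon genes followed the macrophage mean less closely. In controls r was 0.61 and rho 0.60 (permutation p = 0.0428 and 0.0552, adjusted 0.0514 and 0.0828), and r was 0.25 without control tumours 9 and 11, so the relation rests on those tumours. In treated tumours r was 0.35 and rho 0.20 (permutation p = 0.328 and 0.585, also after adjustment), and r was -0.09 without treated tumours 1 and 2. Fibroblast and matrix genes had r = 0.88 and rho = 0.94 with the macrophage mean in controls (permutation p = 0.00029 and 0.00013, adjusted 0.00087 and 0.00039; r = 0.81 without control tumours 9 and 11). In treated tumours they had r = 0.64 and rho = 0.56 (permutation p = 0.037 and 0.0964, adjusted 0.0514 and 0.116), and r was 0.07 without treated tumours 1 and 2. The difference between these relations was not tested.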
